A study of Mus musculus with 9 samples.

Results

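The genes examined here form the signalling axis that runs from the kinases of the translation initiation factor eIF2alpha to the transcription factors ATF4 and CHOP. They are the kinase genes Eif2ak1, Eif2ak2, Eif2ak3 and Eif2ak4, the phosphatase subunit genes Ppp1r15a and Ppp1r15b, and Atf4, Ddit3, Trib3 and Nupr1. They were taken by name: a probe set was used when the only gene symbol listed for it was 1 of the 10, which gave 11 probe sets of the 28939 outside the control block, for 10 of 19938 genes that have a probe set of their own. Every gene had 1 such probe set except Ppp1r15b, which had 2, and all 11 passed the filter on low values.

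RNA came from CD71+Ter119+ erythroblasts with high forward scatter, sorted from mouse fetal livers at E14.5, in mid-gestation, and was hybridized to 9 whole-transcript arrays. Of these, 3 arrays held wild type cells, 3 held Th3/+ cells and 3 held Th3/Th3 cells, from crosses of Th3/+ with Th3/+ animals. Th3 is a beta-thalassemia allele without the adult beta-globin genes, so Th3/+ embryos keep 1 intact locus and Th3/Th3 embryos none. All embryos share a 129SV origin that had been backcrossed onto C57BL/6 for 9 generations. The labels do not say whether a biological replicate was 1 embryo or a pool, so the p-values below measure the spread between 3 samples per genotype, which may be partly technical.

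When eIF2alpha is phosphorylated, general translation falls while the mRNA of ATF4 is translated more, through upstream reading frames. The kinases answer to different signals: HRI (Eif2ak1) to lack of heme and to misfolded or oxidized protein in red cell precursors, PKR (Eif2ak2) to double-stranded RNA, PERK (Eif2ak3) to unfolded protein in the endoplasmic reticulum and GCN2 (Eif2ak4) to lack of amino acids. GADD34 (Ppp1r15a) and CReP (Ppp1r15b) bring protein phosphatase 1 to eIF2alpha and end the response. In erythroblasts HRI balances globin synthesis against heme supply. The arrays measured RNA, not phosphorylation or protein.

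The arrays were checked before the genes were read. Principal component analysis of the tested probe sets set the Th3/Th3 arrays apart on the first component (47.4% of the variance, scores of 32.6 to 36.6 against -23.8 to -9.2 for the other 6), while on the second (16.7%) Th3/+ replicate 1 and Th3/Th3 replicate 1 stood apart at 20.5 and 25.5, against at most 7.7 elsewhere. Erythroblast markers were present: 8 of the 10 listed, Tfrc, Epor, Gata1, Klf1, Alas2, Slc4a1, Hbb-bh1 and Tal1, had a probe set of their own and passed the filter. Of these, 6 fell in Th3/Th3 against wild type, where 4.98% of all probe sets tested were called lower. The summed linear signal of the 8 ran from 25400 to 29800 on wild type arrays, from 23500 to 25100 on Th3/+ arrays and from 13100 to 15700 on Th3/Th3 arrays. Among markers of other cells, 3 of 11 macrophage genes fell (summed signal of the 14 listed 655 to 833, 654 to 1110 and 490 to 544 in the same order, with Csf1r, Mrc1 and Cd163 below the filter). None of 11 hepatoblast, 6 granulocyte and mast cell or 9 megakaryocyte genes passed the test (limma, with 0, 0 and 3 at an unadjusted p under 0.05). Over all probe sets tested, 12.3% passed and 25.7% had such an unadjusted p. The summed megakaryocyte signal was nonetheless lower in Th3/Th3 without overlap (927 to 1250, 1000 to 1190 and 746 to 840 in the same order). The summed hepatoblast signal and the summed granulocyte and mast cell signal overlapped between genotypes. The part of these shifts in the results below was not tested, and in sorted bulk RNA fewer cells of a type cannot be told apart from less RNA per cell.

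In Th3/Th3 erythroblasts 3 genes at the lower end of the axis were higher than in wild type, while 1 kinase gene and 1 phosphatase subunit gene were lower. The genes for NUPR1, CHOP and TRIB3 rose 4.48-fold, 2.62-fold and 2.57-fold over wild type, while those for the heme-regulated kinase HRI and the phosphatase subunit GADD34 fell 1.50-fold and 1.40-fold. The RNA of ATF4 itself differed by 0.05 on the log2 scale and did not pass the test. Of the 10 genes, 3 rose, 2 fell and 5 did not pass the test, and 7 had an unadjusted p under 0.05 (25.7% of all probe sets did). Over all 17742 probe sets tested, 12.3% were called in this comparison, 7.31% higher and 4.98% lower (limma, Benjamini-Hochberg adjusted p under 0.05 over all of them). The count of 5 called genes became 3 without wild type replicate 2, 2 without wild type replicate 3 and 7 without Th3/Th3 replicate 1. In Th3/+ erythroblasts none of the 10 passed the test, against 0.0282% of all probe sets, and 1, Ddit3, had an unadjusted p under 0.05 (3.64% of all probe sets did).

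**Figure D1:**
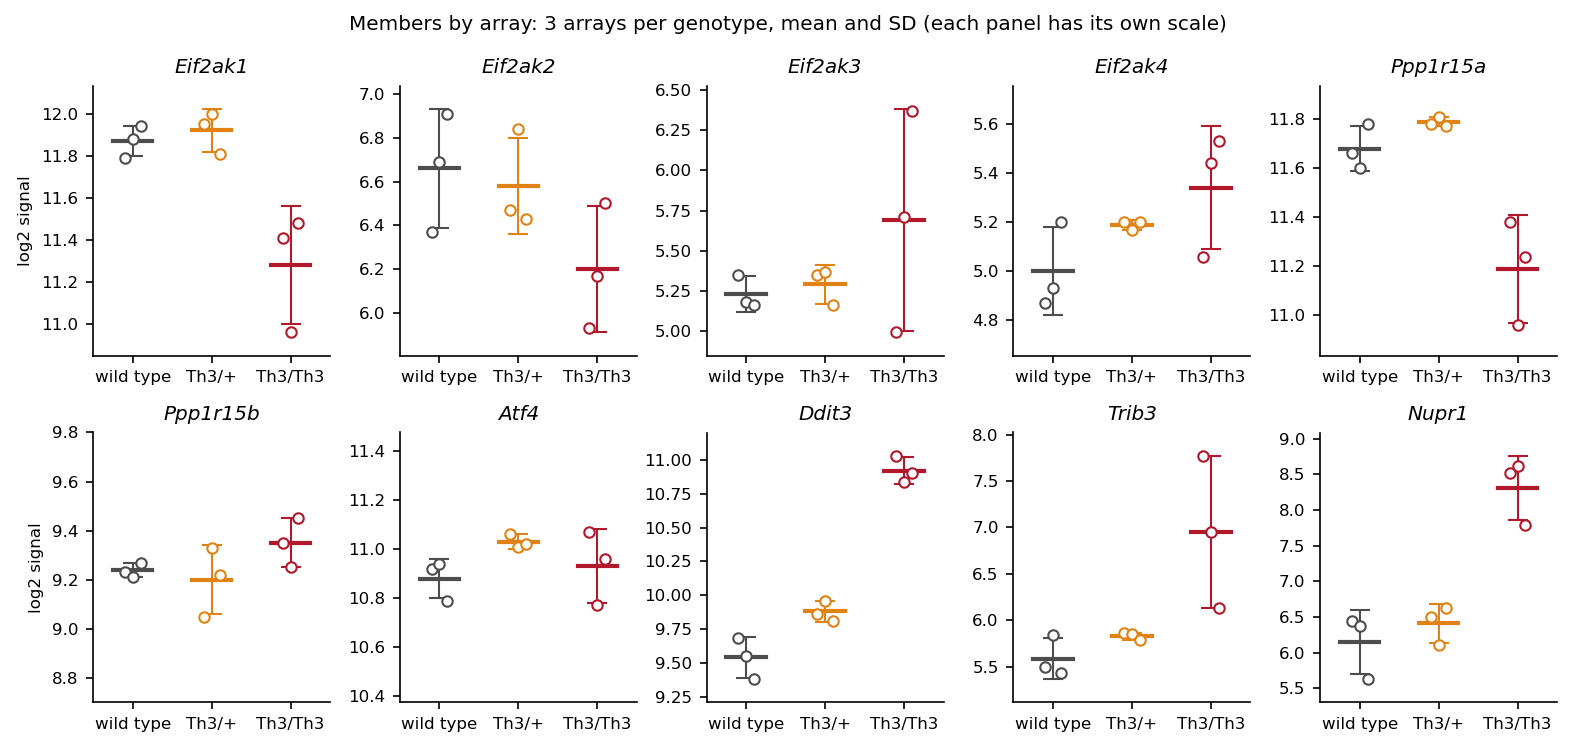
Log2 signal of each of the 10 genes (vertical axes, 1 scale per panel) in the 3 wild type, 3 Th3/+ and 3 Th3/Th3 arrays, with open circles for arrays, thick bars for means and error bars for the SD; Ppp1r15b is drawn by its brighter probe set. Ddit3, Trib3 and Nupr1 are higher in all 3 Th3/Th3 arrays than in any other array, and Eif2ak1 and Ppp1r15a are lower in all 3.

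The promoters of the 5 genes that changed are printed because these genes include both directions of change and because response elements for ATF4 and for endoplasmic reticulum stress are known from genes of this axis. Each sequence is the 250 bases before the gene's start in the RefSeq annotation of GRCm38.p6, written 5′ to 3′ on the gene's strand. Capitals mark the motif matches named after the sequences.
Eif2ak1 (chr5:143817542-143817791, plus strand): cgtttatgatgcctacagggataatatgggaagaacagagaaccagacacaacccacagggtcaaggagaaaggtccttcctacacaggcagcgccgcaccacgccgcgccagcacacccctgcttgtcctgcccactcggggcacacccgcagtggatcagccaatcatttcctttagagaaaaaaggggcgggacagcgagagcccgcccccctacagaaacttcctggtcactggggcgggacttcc
Ppp1r15a (chr7:45526269-45526518, minus strand): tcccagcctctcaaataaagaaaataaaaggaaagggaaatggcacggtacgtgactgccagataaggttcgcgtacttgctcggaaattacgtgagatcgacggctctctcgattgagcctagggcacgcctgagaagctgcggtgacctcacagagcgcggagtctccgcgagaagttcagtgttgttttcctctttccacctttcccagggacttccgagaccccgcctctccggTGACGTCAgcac
Ddit3 (chr10:127290543-127290792, plus strand): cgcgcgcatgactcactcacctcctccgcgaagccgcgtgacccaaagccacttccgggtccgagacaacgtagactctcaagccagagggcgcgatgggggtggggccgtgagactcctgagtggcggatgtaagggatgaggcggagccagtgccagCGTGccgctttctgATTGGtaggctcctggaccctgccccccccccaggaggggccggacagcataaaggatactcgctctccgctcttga
Trib3 (chr2:152344061-152344310, minus strand): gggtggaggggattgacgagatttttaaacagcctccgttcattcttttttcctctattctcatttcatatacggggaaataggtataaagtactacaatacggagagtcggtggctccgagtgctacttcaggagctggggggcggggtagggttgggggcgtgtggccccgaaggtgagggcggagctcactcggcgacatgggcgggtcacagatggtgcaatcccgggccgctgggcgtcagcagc
Nupr1 (chr7:126625471-126625720, minus strand): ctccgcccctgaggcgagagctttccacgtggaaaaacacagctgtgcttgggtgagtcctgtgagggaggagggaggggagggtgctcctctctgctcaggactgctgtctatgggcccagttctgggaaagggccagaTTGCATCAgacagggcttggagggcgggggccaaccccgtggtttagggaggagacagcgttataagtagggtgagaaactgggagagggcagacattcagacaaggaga

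Windows of 300 bases, which add the 50 bases after the start, were available for 9 of the 10 genes, all but Ppp1r15b, and were searched on both strands. Sites further than 250 bases before a start lie outside the windows. A window without a match, for Ddit3 or any other gene, therefore does not show that the gene lacks the element. The core of the C/EBP-ATF response element, TGATGNAA, which ATF4 binds together with C/EBP partners, occurs in 3.97% of all 32851 promoter windows. Among the axis genes it was found in Nupr1, as TTGCATCA from 110 to 103 bases before the start, and in Trib3, as TTACATCA from 15 to 22 bases after it. The endoplasmic reticulum stress element (CCAAT and CCACG with a fixed spacer between them) occurs in 0.119% of windows and in none of these genes. With the first base of its CCACG left free, it occurs in 0.265% of windows and matches Ddit3 from 91 to 73 bases before the start, on the reverse strand. The palindrome TGACGTCA, a cAMP response element, occurs in 1.79% of windows and matches Ppp1r15a from 12 to 5 bases before the start. The latter pair of patterns was added after the sequences had been seen. The Eif2ak1 window held none of the 4 patterns. Each match describes letters in a window and not binding. Ppp1r15a and Nupr1 lie on chromosome 7, as does the beta-globin cluster gene Hbb-bh1.

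The kinases did not move as a group. Eif2ak1, the gene for HRI, gave 11.79, 11.88 and 11.94 on wild type arrays, 11.95, 12.00 and 11.81 on Th3/+ arrays, and 11.41, 10.96 and 11.48 on Th3/Th3 arrays (log2 signal). All 3 Th3/Th3 arrays lay below all others, and replicate 2 was the lowest. The gene fell by 0.59 from wild type (means 11.87 ± 0.07 and 11.28 ± 0.28, SD, n = 3; SE 0.13, 95% confidence interval -0.88 to -0.30, limma adjusted p = 0.0163). This call was lost without wild type replicate 2 (-0.59, adjusted p = 0.0548) or wild type replicate 3 (-0.55, adjusted p = 0.0623). Against Th3/+ the difference was -0.64 (SE 0.13, adjusted p = 0.0179), which no longer passed without Th3/+ replicate 1 (-0.62, adjusted p = 0.0575) or Th3/+ replicate 2 (-0.60, adjusted p = 0.0783), nor without both arrays that stood apart (-0.69, adjusted p = 0.0625) or with only the arrays of both genotypes fitted (-0.64, adjusted p = 0.0640). The erythroblast markers above also had a lower summed signal on the Th3/Th3 arrays, as any gene that fell in this genotype did. A link between them and Eif2ak1 was not tested.

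Eif2ak2, the gene for PKR, gave 6.37, 6.69 and 6.91 on wild type arrays, 6.47, 6.84 and 6.43 on Th3/+ arrays, and 5.93, 6.17 and 6.50 on Th3/Th3 arrays. The genotypes overlapped, and the difference of -0.46 between Th3/Th3 and wild type did not pass the test (SE 0.19, 95% interval -0.88 to -0.03, adjusted p = 0.164). Eif2ak3, the gene for PERK, gave 5.35, 5.18 and 5.16 on wild type arrays and 5.35, 5.37 and 5.16 on Th3/+ arrays. Its Th3/Th3 arrays spread from 4.99 in replicate 1 through 5.71 in replicate 2 to 6.37 in replicate 3, so the lowest and the highest values of the gene were both in that genotype. The difference from wild type was 0.46 (SE 0.27, 95% interval -0.16 to 1.08, adjusted p = 0.345) and became 0.81 without Th3/Th3 replicate 1 (adjusted p = 0.0218) and 0.81 without both arrays that stood apart (adjusted p = 0.0317), but 0.12 without Th3/Th3 replicate 3 (adjusted p = 0.775). Against Th3/+ it was 0.40 (adjusted p = 0.464), 0.75 without Th3/Th3 replicate 1 (adjusted p = 0.0415) and 0.06 without Th3/Th3 replicate 3 (adjusted p = 0.914).

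Eif2ak4, the gene for GCN2, gave 4.87, 4.93 and 5.20 on wild type arrays, 5.20, 5.17 and 5.20 on Th3/+ arrays, and 5.06, 5.44 and 5.53 on Th3/Th3 arrays. These levels were close to the array medians of 4.97 to 5.05. The difference of Th3/Th3 from wild type was 0.34 (SE 0.13, 95% interval 0.05 to 0.63, adjusted p = 0.133), and it passed without Th3/Th3 replicate 1 (0.48, adjusted p = 0.0210) and without both arrays that stood apart (0.48, adjusted p = 0.0294). Th3/Th3 replicate 1 was thus the lowest of its genotype for the PKR, PERK and GCN2 genes, and for Eif2ak3 and Eif2ak4 that array decides whether a rise is called. In Th3/+ the 4 kinase genes differed from wild type by -0.08 to 0.19, and none passed (adjusted p = 1.00 for each).

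The phosphatase subunits differed from each other. Ppp1r15a, the stress-induced subunit GADD34, gave 11.66, 11.60 and 11.78 on wild type arrays, 11.78, 11.81 and 11.77 on Th3/+ arrays, and 11.38, 10.96 and 11.24 on Th3/Th3 arrays. The Th3/Th3 arrays lay below all 6 others, again with replicate 2 lowest. It fell by 0.49 from wild type (SE 0.10, 95% interval -0.72 to -0.25, adjusted p = 0.0155) and by 0.60 from Th3/+ (SE 0.10, 95% interval -0.83 to -0.36, adjusted p = 0.00997). The first of these calls was lost without wild type replicate 3 (-0.44, adjusted p = 0.0600) and when only the arrays of both genotypes were fitted (-0.49, adjusted p = 0.0536). Ppp1r15b, the constitutive subunit CReP, differed between Th3/Th3 and wild type by 0.12 on its brighter probe set (means 9.35 ± 0.10 and 9.24 ± 0.03; 95% interval -0.14 to 0.38, adjusted p = 0.592) and by -0.16 on the other (6.43 ± 0.21 and 6.58 ± 0.08; 95% interval -0.43 to 0.11, adjusted p = 0.462). Its 2 probe sets thus pointed in opposite directions, and neither passed the test.

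Among the transcription factors and effectors, Atf4 gave 10.92, 10.94 and 10.79 on wild type arrays, 11.06, 11.01 and 11.02 on Th3/+ arrays, and 11.07, 10.77 and 10.96 on Th3/Th3 arrays. The highest and the lowest of the 9 values, 11.07 and 10.77, were both in Th3/Th3. The difference from wild type was 0.05 (SE 0.09, 95% interval -0.16 to 0.26, which as a fold is 0.894 to 1.20, adjusted p = 0.804), and it turned to -0.02 without Th3/Th3 replicate 1 (adjusted p = 0.916). The 3 Th3/+ arrays lay above the 3 wild type arrays, by 0.14 in the mean, which did not pass (adjusted p = 1.00); 7.63% of all probe sets had no overlap between these genotypes.

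Ddit3, the gene for CHOP, a transcription factor that ATF4 induces and that promotes death under unresolved stress, gave 9.68, 9.55 and 9.38 on wild type arrays, 9.86, 9.96 and 9.81 on Th3/+ arrays, and 11.03, 10.84 and 10.90 on Th3/Th3 arrays. The genotypes formed 3 steps without overlap. The rise from wild type to Th3/Th3 was 1.39 (SE 0.11, 95% interval 1.14 to 1.64, adjusted p = 0.000149), and it stood at rank 46 by p-value among all probe sets tested. From Th3/+ to Th3/Th3 it was 1.05 (SE 0.11, 95% interval 0.80 to 1.30, adjusted p = 0.00105). The Th3/+ value lay 0.34 above wild type (SE 0.11, 95% interval 0.09 to 0.59), with an unadjusted p = 0.0127 and an adjusted p = 1.00, so this step was not called. The comparisons with Th3/Th3 passed under all 17 alternative settings tried, with rises of 1.31 to 1.46 over wild type and 0.98 to 1.09 over Th3/+.

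Nupr1, which encodes a small stress-induced regulator of transcription, gave 6.44, 6.37 and 5.63 on wild type arrays, 6.50, 6.11 and 6.63 on Th3/+ arrays, and 8.52, 8.62 and 7.79 on Th3/Th3 arrays. All 3 Th3/Th3 arrays were more than 1 log2 unit above the other 6, and wild type and Th3/+ overlapped. The rise over wild type was 2.16 (SE 0.28, 95% interval 1.54 to 2.78, adjusted p = 0.00143), and over Th3/+ it was 1.90, or 3.72-fold (SE 0.28, 95% interval 1.27 to 2.52, adjusted p = 0.00459). Both passed under all 17 alternative settings. Th3/+ lay 0.27 above wild type (95% interval -0.36 to 0.89, adjusted p = 1.00).

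Trib3, which encodes a pseudokinase that binds ATF4 and CHOP and dampens their activity, gave 5.50, 5.84 and 5.43 on wild type arrays, 5.87, 5.85 and 5.79 on Th3/+ arrays, and 7.77, 6.95 and 6.13 on Th3/Th3 arrays. The Th3/Th3 arrays were above all others but spread widely, with replicate 1 highest and replicate 3 closest to the Th3/+ values. The rise over wild type was 1.36 (SE 0.33, 95% interval 0.62 to 2.10, adjusted p = 0.0265). It lost its call without wild type replicate 1 (1.31, adjusted p = 0.0861), wild type replicate 2 (1.49, adjusted p = 0.0524), wild type replicate 3 (1.28, adjusted p = 0.0928) or Th3/Th3 replicate 2 (1.36, adjusted p = 0.0731), and when only the arrays of both genotypes were fitted (1.36, adjusted p = 0.0775). The difference of 1.11 from Th3/+ did not pass (SE 0.33, adjusted p = 0.0810), and passed without Th3/Th3 replicate 3 (1.52, adjusted p = 0.0101). Without Th3/Th3 replicate 1 it was 0.70 (adjusted p = 0.105). Th3/Th3 replicate 1, the highest for Trib3, was the lowest of its genotype for Eif2ak3, where replicate 3 was the highest.

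Th3/Th3 was also set against Th3/+ directly, since an effect called in one genotype and not in the other is not by itself a difference between them. Of the 10 genes, Ddit3 and Nupr1 were higher and Eif2ak1 and Ppp1r15a lower in Th3/Th3, against 7.27% of all probe sets called (4.01% higher and 3.26% lower), and 5 had an unadjusted p under 0.05, against 21.1%. This comparison shares the Th3/Th3 arrays with the one against wild type, so the 2 are not independent. The 3 Th3/Th3 arrays did not overlap the Th3/+ arrays in 5 of the 10 genes (22.8% of all probe sets), and did not overlap the wild type arrays in the same number (27.5%).

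**Figure D2:**
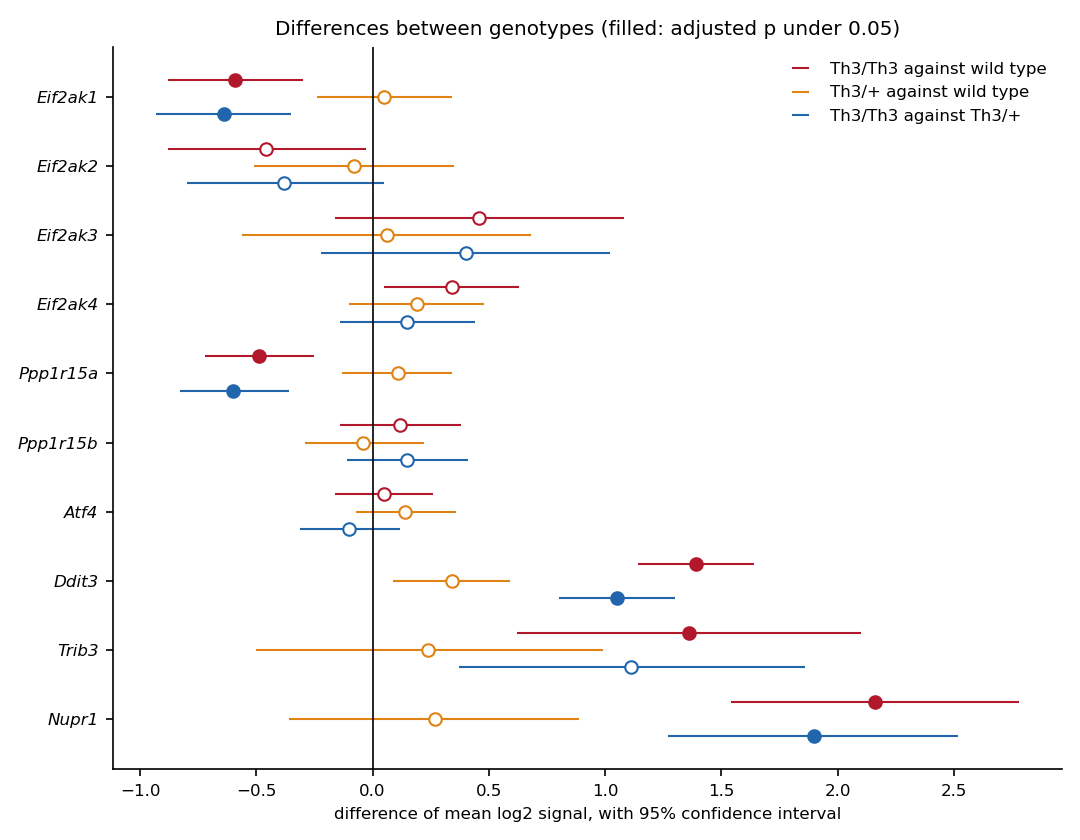
Difference of mean log2 signal with its 95% confidence interval (horizontal axis) for each gene in the 3 comparisons, with filled circles where the adjusted p is under 0.05. The Th3/+ intervals of 9 genes span 0, and that of Ddit3 runs from 0.09 to 0.59.

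The machinery on which the kinases act was then read from a list of eIF2 and eIF2B subunits. eIF2 carries the initiator tRNA to the ribosome and eIF2B recharges it, a step that phosphorylated eIF2alpha blocks. Of 7 measured subunits (8 listed, Eif2s1 without a probe set of its own), 2 rose and 0 fell in Th3/Th3 against wild type (7.31% and 4.98% of all probe sets), with a median difference of 0.31 against 0.00 for all probe sets. The 2 became 0 without wild type replicate 2, and 1 without wild type replicate 3, Th3/+ replicate 2 or any Th3/Th3 replicate, with no filter and under quantile normalization. Both belong to eIF2B: Eif2b2 gave 7.65, 7.34 and 7.81 on wild type arrays and 8.30, 8.65 and 8.89 on Th3/Th3 arrays, a rise of 1.01 without overlap (SE 0.21, adjusted p = 0.0123). It was lost without wild type replicate 2 (0.88, adjusted p = 0.0510). Eif2b4 rose by 0.48 (7.13 ± 0.22 to 7.61 ± 0.08, adjusted p = 0.0456). Its call was lost without any of 8 of the 9 arrays, all but wild type replicate 1 (0.36 to 0.52, adjusted p = 0.0573 to 0.142). It was also lost without both arrays that stood apart (0.44, adjusted p = 0.105) and under quantile normalization (0.40, adjusted p = 0.105). The same held with the replicate number as a block (0.48, adjusted p = 0.0521), with no filter (0.48, adjusted p = 0.0691) and with only both genotypes fitted (0.48, adjusted p = 0.0975). Eif2b5 rose by 0.82 over wild type without overlap and was not called (limma adjusted p = 0.0518). In Th3/+ 0 of the 7 passed (limma, with 0 at an unadjusted p under 0.05). Against Th3/+, 2 of the 7 were higher in Th3/Th3 and 0 lower (4.01% and 3.26% of all probe sets). They were Eif2b2 (0.97, adjusted p = 0.0228) and Eif2b5 (0.93, adjusted p = 0.0458). The 2 became 1 or 0 when any array but Th3/+ replicate 3 was left out.

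Genes that activate, inhibit or partner the kinases and phosphatase moved both ways. Of 12 measured (13 listed, Prkra below the filter), 1 rose and 2 fell in Th3/Th3 against wild type, with a median of 0.14, where 12.3% of all probe sets were called. The number that rose became 3 with the replicate number as a block, without Th3/Th3 replicate 1 and without both arrays that stood apart. The number that fell became 1 in the fits named for Adar below. Impact, which inhibits GCN2 by competing for its activator GCN1, gave 5.84, 6.28 and 6.93 on wild type arrays, 6.09, 6.47 and 6.94 on Th3/+ arrays, and 7.96, 8.14 and 8.77 on Th3/Th3 arrays. It was higher in all 3 Th3/Th3 arrays, by 1.94 or 3.84-fold over wild type (SE 0.32, adjusted p = 0.00481) and by 1.79 over Th3/+ (adjusted p = 0.0109). Ppp1cb, a catalytic subunit of protein phosphatase 1, gave 11.69, 12.03 and 12.07 on wild type arrays and 11.24, 11.38 and 11.33 on Th3/Th3 arrays, a difference of -0.61 (SE 0.10, adjusted p = 0.00426). The other catalytic subunit genes, Ppp1ca and Ppp1cc, differed by 0.15 and 0.02 (adjusted p = 0.723 and 0.924). Adar, whose enzyme edits the double-stranded RNA that can activate PKR, fell by 0.75 (7.19 ± 0.17 to 6.44 ± 0.39, adjusted p = 0.0286). The Adar call was lost without wild type replicates 1, 2 or 3 or Th3/Th3 replicates 1 or 2, without both arrays that stood apart, or with only both genotypes fitted (-0.81 to -0.57, adjusted p = 0.0582 to 0.103).

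Of 9 measured bZIP partners of ATF4 and CHOP (10 listed, Cebpd below the filter), 1 rose and 0 fell, with a median of 0.01, a share near the 12.3% of all probe sets that were called. The number that rose became 0 without wild type replicate 2 or 3 or Th3/Th3 replicate 2 and with only both genotypes fitted. It became 2 with the replicate block, without Th3/Th3 replicate 3, with a stricter filter, with median centring and without the variance trend. Cebpg, which pairs with ATF4 on its response element, gave 8.24, 8.30 and 8.31 on wild type arrays and 8.74, 9.40 and 8.94 on Th3/Th3 arrays, a rise of 0.74 (SE 0.18, adjusted p = 0.0237). It did not pass without wild type replicates 1, 2 or 3 or Th3/Th3 replicate 2, or with only both genotypes fitted (0.55 to 0.76, adjusted p = 0.0527 to 0.0766). Atf3, another stress-induced factor that ATF4 can induce, stayed between 4.42 and 4.80 on all 9 arrays, near the 40th percentile of each array (4.52 to 4.62), and differed by 0.01 (adjusted p = 0.979). Listed genes of endoplasmic reticulum stress did not all rise. Ero1a and Herpud1, given below among the targets, rose by 2.15 and 1.46. Atf6 and Xbp1 differed by -0.03 and 0.32 (adjusted p = 0.933 and 0.220). Hspa5 and Dnajc3, of the list before, differed by -0.12 and 0.70 and did not pass either (adjusted p = 0.740 and 0.125). The Th3/Th3 arrays of Dnajc3 nonetheless lay above its wild type arrays (27.5% of all probe sets had no overlap between these genotypes).

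Targets of ATF4 and CHOP were split by function. Of 14 measured genes of amino acid supply (16 listed), 5 rose and 2 fell in Th3/Th3 against wild type, where 7.31% of all probe sets were called higher and 4.98% lower, with a median of 0.31 (0.00 for all probe sets). The 5 became 2 without wild type replicate 2 or 3 or Th3/Th3 replicate 2 or 3, and with only both genotypes fitted. The 2 that fell became 1 without wild type replicate 1 or 3 or Th3/Th3 replicate 2. Slc7a11, the cystine transporter subunit, gave 3.84, 4.05 and 3.92 on wild type arrays, 3.98, 3.78 and 4.18 on Th3/+ arrays, and 5.45, 5.54 and 5.62 on Th3/Th3 arrays. All 6 wild type and Th3/+ values lay below the 40th percentile of their arrays, a range the filter treats as background, so Slc7a11 entered the test only through the Th3/Th3 arrays, where it had to differ. It is given by its values alone, is 1 of the 5 counted and is part of the median. No other listed gene passed the filter in this way. Slc1a4, a transporter of serine and alanine, rose by 0.62 (4.95 ± 0.12 to 5.57 ± 0.18, adjusted p = 0.00665). The rest of the 5 encode enzymes and are named beyond the rule for list genes. Psat1 rose by 0.75 (adjusted p = 0.0263), Mthfd2 by 0.51 (adjusted p = 0.0278) and Asns by 0.29 (adjusted p = 0.0436). None of these enzyme calls held in the fits above in which the 5 became 2. The 2 genes that fell were transporters, as Slc7a11 and Slc1a4 are. Slc1a5, which imports glutamine, gave 10.59, 10.46 and 10.74 on wild type arrays, 10.45, 10.62 and 10.58 on Th3/+ arrays, and 9.29, 9.23 and 9.46 on Th3/Th3 arrays, a difference of -1.27 (SE 0.11, adjusted p = 0.000236). Slc7a5, which imports large neutral amino acids, fell by 0.48 (11.09 ± 0.07 to 10.61 ± 0.13, adjusted p = 0.0202), a call lost without wild type replicate 1, wild type replicate 3 or Th3/Th3 replicate 2 (-0.47 to -0.41, adjusted p = 0.0642 to 0.0725).

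Of 13 measured stress effectors among the targets (16 listed), 5 rose and 1 fell, with a median of 0.29, against the same 7.31% and 4.98% of all probe sets. Ero1a, an oxidase of the endoplasmic reticulum that CHOP induces, gave 7.69, 7.17 and 6.90 on wild type arrays, 7.58, 7.92 and 7.32 on Th3/+ arrays, and 9.48, 9.33 and 9.41 on Th3/Th3 arrays, a rise of 2.15 (SE 0.22, adjusted p = 0.000447). Sqstm1, the autophagy receptor, rose by 1.47 (9.29 ± 0.26 to 10.76 ± 0.05, adjusted p = 0.000284), and Eif4ebp1, a repressor of cap-dependent translation, by 0.98 (6.70 ± 0.25 to 7.68 ± 0.27, adjusted p = 0.00555). Both Sqstm1 and Eif4ebp1 formed 3 steps without overlap, as Ddit3 did. Between Th3/+ and wild type, 7.63% of all probe sets had no overlap. Herpud1, of endoplasmic reticulum degradation, formed such steps too: 7.98, 8.11 and 7.88 on wild type arrays, 8.58, 8.63 and 8.89 on Th3/+ arrays, and 9.69, 9.26 and 9.39 on Th3/Th3 arrays. It rose by 1.46 over wild type (SE 0.15, adjusted p = 0.000494) and by 0.75 over Th3/+ (SE 0.15, adjusted p = 0.0174). Its Th3/+ value lay 0.71 above wild type at an unadjusted p = 0.000940, rank 32 among all probe sets, and was not called (adjusted p = 0.521). Txnip, an inhibitor of thioredoxin, was the gene that fell, by 0.92 from wild type (SE 0.25, adjusted p = 0.0444). This call was lost without any of the 3 wild type replicates, Th3/+ replicate 1 or Th3/Th3 replicates 2 or 3, with no filter and with only both genotypes fitted. It read 8.72, 8.53 and 8.15 on wild type arrays, 7.70, 8.03 and 7.24 on Th3/+ arrays, and 7.93, 7.52 and 7.21 on Th3/Th3 arrays, so that both Th3 genotypes lay below wild type, and the Th3/+ difference of -0.82 was not called (unadjusted p = 0.00968, adjusted p = 1.00). Txnip is named beyond the rule for list genes, after its values were seen. In Th3/+, 0 of 14 amino acid genes and 0 of 13 stress effectors passed (limma, with 3 and 4 at an unadjusted p under 0.05), where 0.0282% of all probe sets were called and 3.64% had such a p. The 3 were Asns (0.32), Phgdh (0.47) and Mthfd2 (0.36), all higher in Th3/+ than in wild type. Of the 4, Herpud1, Sqstm1 and Eif4ebp1 were higher and Txnip was lower.

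**Figure D3:**
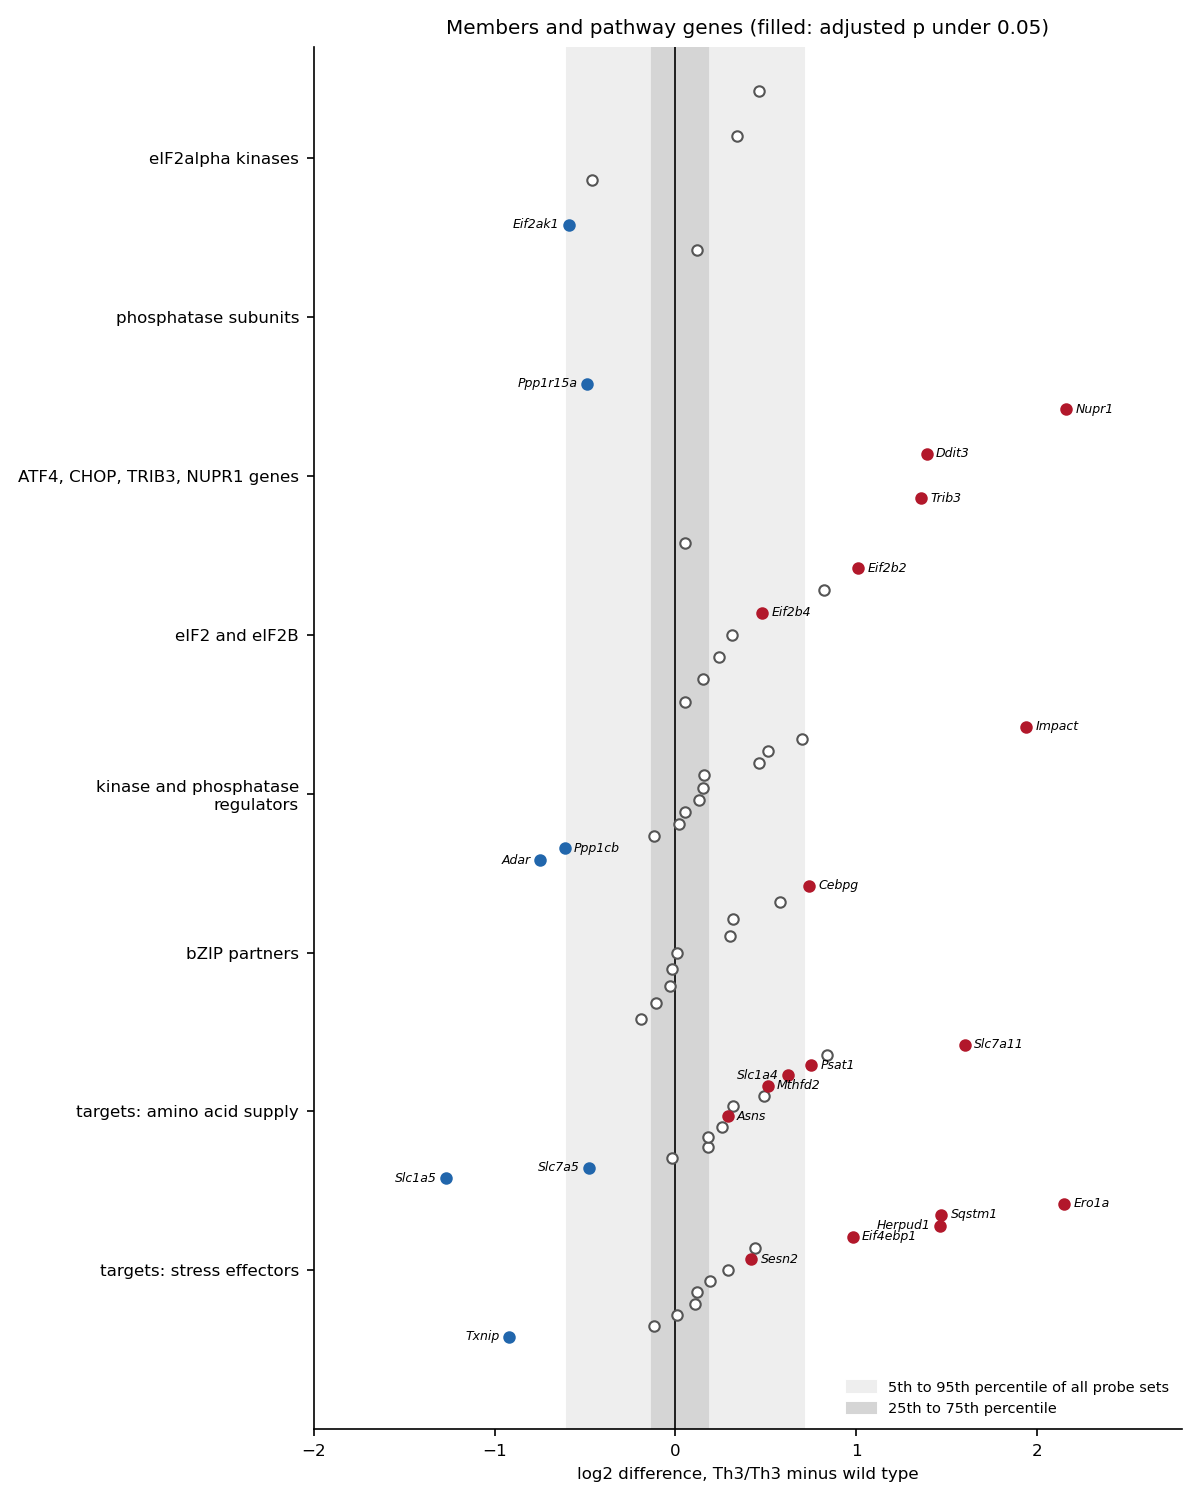
Log2 difference of Th3/Th3 minus wild type (horizontal axis) for the brightest probe set of each gene, by list, with filled red circles for genes called higher, filled blue circles for genes called lower and open circles for the rest. Grey bands run from the 25th to the 75th percentile (-0.13 to 0.18) and from the 5th to the 95th (-0.60 to 0.71) of all probe sets. Nupr1, Ddit3, Trib3, Impact, Ero1a, Slc7a11, Sqstm1 and Herpud1 lie furthest above them. Slc7a11 passed the filter only through its Th3/Th3 arrays, so its filled circle is not a test result to rely on.

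The genes with the array profile most like 3 of the members were ranked over 13332 named probe sets by Pearson correlation over the 9 arrays, which share genotype and array quality, so the coefficients are descriptions without a test. For Eif2ak1 they were Car2, a red cell carbonic anhydrase (r = 0.985), Vopp1 (0.981) and Slc25a51, a mitochondrial carrier (0.977), each lowest in Th3/Th3 replicate 2. For Ddit3 they were Ccdc117 (0.989), the mitochondrial cochaperonin Hspe1 (0.989) and Ero1a (0.988), each high in all 3 Th3/Th3 arrays. For Atf4 the profile did not separate Th3/Th3 from the other genotypes. Chac1, an ATF4 target that degrades glutathione, came first (r = 0.970), ahead of Arhgef11 (0.935) and Slc29a4 (0.931). In both Atf4 and Chac1 the Th3/+ arrays lay above the wild type arrays, without a call. Chac1 gave 7.28, 7.31 and 6.64 on wild type arrays, 7.54, 7.52 and 7.41 on Th3/+ arrays, and 7.56, 6.72 and 7.31 on Th3/Th3 arrays. Like Atf4 it was lowest in wild type replicate 3 and Th3/Th3 replicate 2 and highest in Th3/Th3 replicate 1, and its difference of 0.12 between Th3/Th3 and wild type did not pass (adjusted p = 0.808).

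**Figure D4:**
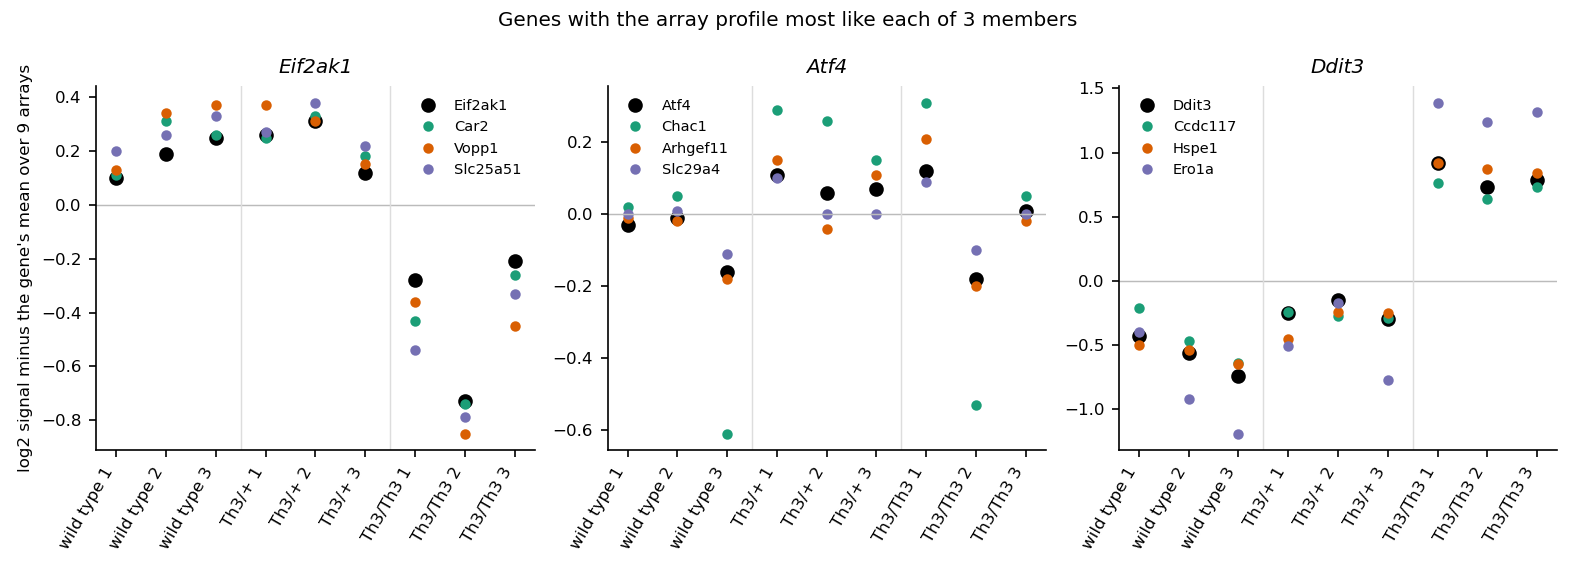
Log2 signal minus each gene's mean over the 9 arrays (vertical axis, 1 scale per panel) on each array (horizontal axis) for Eif2ak1, Atf4 and Ddit3 in black and the 3 genes most like each in colour. The Eif2ak1 and Ddit3 panels separate Th3/Th3 from the other arrays, while in the Atf4 panel wild type replicate 3 and Th3/Th3 replicate 2 are lowest.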

How the data were processed

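The authors deposited 1 log2 value per probe set and array, from 1.78 to 14.26 with array medians near 5 (the log scale is read from the values). Per the submitters' processing notes the tool was MAS5, and no source used here gives its settings, the background correction or the scaling. Of 35556 probe sets, 6617 with identifiers below the first annotated one were left out as the control block. Genes were named from the platform annotation, and a gene stands by its brightest probe set. Values were used as deposited. The 17742 probe sets that exceeded an array's 40th percentile in 3 or more of the 9 arrays were fitted with limma 3.58.1 in R 4.3.3 (1 mean per genotype over all 9 arrays, eBayes with trend, two-sided, Benjamini-Hochberg over all of them, called at an adjusted p under 0.05). The procedure was run on simulated data with independent noise on each array, so deviations shared between arrays were not covered. An exact permutation of 3 against 3 arrays cannot go below p = 0.1, so calls rest on limma's moderated variance. The members, lists and motifs were chosen with earlier results of these data known. Named list genes are up to 4 called in Th3/Th3 against wild type, by smallest adjusted p. Arrays have no read depth, and their number limits the precision.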

Additional observations from a re-analysis of the deposited data

How the results depend on the processing

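With only 3 arrays per genotype, calls near the threshold depend on single arrays. Ddit3 and Nupr1 kept direction and call against wild type and against Th3/+ under all 17 alternatives. Leaving out 1 array gave 2 to 7 of the 10 genes called in Th3/Th3 against wild type, 3 to 5 in Th3/Th3 against Th3/+ and 0 in Th3/+ against wild type, and 1444 to 2310, 585 to 1412 and 1 to 12 probe sets overall. The lowest of these were without wild type replicate 2 (1444) and without Th3/+ replicate 2 (585 and 1), and 12 was without Th3/+ replicate 1. Fitting only the genotypes compared gave 3 genes against wild type, and 1609, 798 and 0 probe sets; the stricter filter gave 10 probe sets for Th3/+. Without both arrays that stood apart, 7 genes were called against wild type and 3 against Th3/+, and 3 probe sets for Th3/+ against wild type. Values that changed sign were never called: Atf4 (-0.02 without Th3/Th3 replicate 1, alone or with Th3/+ replicate 1; -0.02 to 0.13 over single arrays left out), Ppp1r15b on its dimmer probe set (-0.16 and -0.14 in Th3/Th3 against wild type and Th3/+) and, for Th3/+, Ppp1r15b (0.04 without Th3/+ replicate 1, alone or with Th3/Th3 replicate 1; -0.10 to 0.04) and Eif2ak2 (0.04 without wild type replicate 3; -0.22 to 0.04). The cause was not tested. The labels do not say that a replicate number marks a shared litter or day, and the arrays were not treated as paired because not every pair passed 0.1: deviations of same-numbered arrays correlated at -0.13 to 0.36, over 0.1 in 6 of 9 pairs, and 6 of 9 arrays correlated best with their own number, a hint from the data of a shared factor. With the replicate number as a block, 2470, 1513 and 6 probe sets were called, with 5, 4 and 0 of the 10 genes. Quantile normalization and median centring moved the median of all differences by at most 0.02 in size (-0.02 to 0.01). The 5 probe sets called for Th3/+ were all higher (100%), against 85.7% and 83.3% of those called under these scalings. In Th3/Th3 against wild type 59.5% of those called were higher, against 51.4% under quantile normalization and 62.4% under median centring. Against Th3/+ the shares were 55.1%, 50.4% and 58.6%, so the balance of higher and lower calls depends on the scaling.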
